A study of Mus musculus with 4 samples.

Results

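The response of Ezh2-deleted macrophages to lipopolysaccharide (LPS) was taken as the comparison of 2 of the 4 libraries of the series, knockout (KO) cells after 2 h of LPS and KO cells left untreated (NT). Its members were the 9034 genes with at least 50 expected counts in at least 1 of these libraries, of 15129 genes listed in either and 15935 listed in any of the 4. No fold change entered the choice. Of the 9034, 7421 passed in both libraries, 1388 in KO NT alone and 225 in KO LPS alone, so a gene that passed in 1 library alone was bound to have fewer counts in the other.

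The cells were bone marrow-derived macrophages, grown from marrow of the femurs and tibias of adult C57BL/6 mice for 5 days in DMEM with conditioned medium as a source of M-CSF, which keeps macrophages alive. KO NT and KO LPS came from ezh2 f/f mice carrying LysM-Cre, a recombinase driven by the lysozyme M promoter of myeloid cells, and were labelled EZH2-/-. WT NT and WT LPS came from wild-type (WT) mice and were cultured and treated in the same way. Each group was 1 library of total RNA, and the labels do not give the number of mice behind it, the dose of LPS, or whether a genotype's treated and untreated cells shared a culture. No difference below therefore has a replicate check, and none was tested.

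The level of a gene is given in FPKM, the authors' value per kilobase of transcript, scaled to the depth of the library. A log2 fold is the log2 of (FPKM + 1) in KO LPS over (FPKM + 1) in KO NT, which understates the change of low genes. A ratio is that of the FPKM values themselves, with an exact Clopper-Pearson 95% interval from the expected counts. These intervals cover counting error only, since PCR reads are not independent molecules and culture-to-culture variation is not in them. Total expected counts lay between 5237782 in KO LPS and 5678451 in WT NT. In bulk RNA, fewer cells of a type and less RNA per cell cannot be told apart.

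Ezh2, the deleted gene (chr6:47530274-47595270), was low everywhere and missed the count limit. It had 31 expected counts in KO NT and 18 in KO LPS, against 43 and 38 in the WT pair. Its level was 2.06 and 1.29 FPKM in the KO pair and 2.84 and 2.52 FPKM in the WT pair, with NT given before LPS. A total over the whole gene includes exons outside a floxed stretch, which the labels do not name, so these counts do not check the deletion. The KO ratio of LPS over NT was 0.626 (0.330 to 1.16). Lyz2, the lysozyme gene whose promoter drives the Cre, was at 18.6 FPKM in KO NT and 22.4 in KO LPS, with fractional counts that show reads shared with another gene.

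LPS is the outer-membrane glycolipid of Gram-negative bacteria. Macrophages bind it through Cd14, Ly96 (MD-2) and Tlr4, which signals through the adaptors MyD88 and TRIF to NF-kB, to the MAP kinases and AP-1, and to the interferon regulatory factor Irf3. The early products are cytokines and chemokines, inhibitors that end the signal, and interferon beta, which acts back on the cells to raise a further set of genes. Ezh2 carries the enzyme activity of PRC2, a Polycomb complex that methylates histone H3 on lysine 27 at silent genes.

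After 2 h, 591 of the 9034 genes were at least 2-fold higher in KO LPS (6.54%) and 1292 were at least 2-fold lower (14.3%). The large changes were upward. At 4-fold or more there were 294 higher genes and 102 lower, at 10-fold or more 114 and 8, and 10 genes were over 100-fold higher. On the higher side, the genes just inside and just outside the 2-fold limit had log2 folds of 1.0045 and 0.9951. The higher genes made up 3.75% of all expected counts in KO NT and 20.9% in KO LPS, while the lower genes went from 7.75% to 2.68%. Among all members, 37 genes went from under 1 FPKM to 10 FPKM or more, and 5 went the other way.

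Most genes sat slightly below their untreated level. The median log2 fold of all 9034 genes was -0.41, and the counting interval lay below 1 for 5647 of them and above 1 for 1436. With median-ratio scaling of the libraries the median moved to -0.08, 826 genes passed 2-fold upward and 615 downward, and the higher genes made up 57.3% of those past 2-fold, against 31.4% on the deposited scale. A pseudocount of 5 FPKM (479 higher, 370 lower, 56.4% higher), a limit of 200 counts (480 and 566, 45.9%) and a 3-fold rule (398 and 280, 58.7%) also shifted that balance. A fold near -0.41 is thus no difference from the bulk of genes, and the gene groups below are read against it. Likewise, the counts of their members past 2-fold stand beside 6.54% higher and 14.3% lower over all genes.

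**Figure D1:**
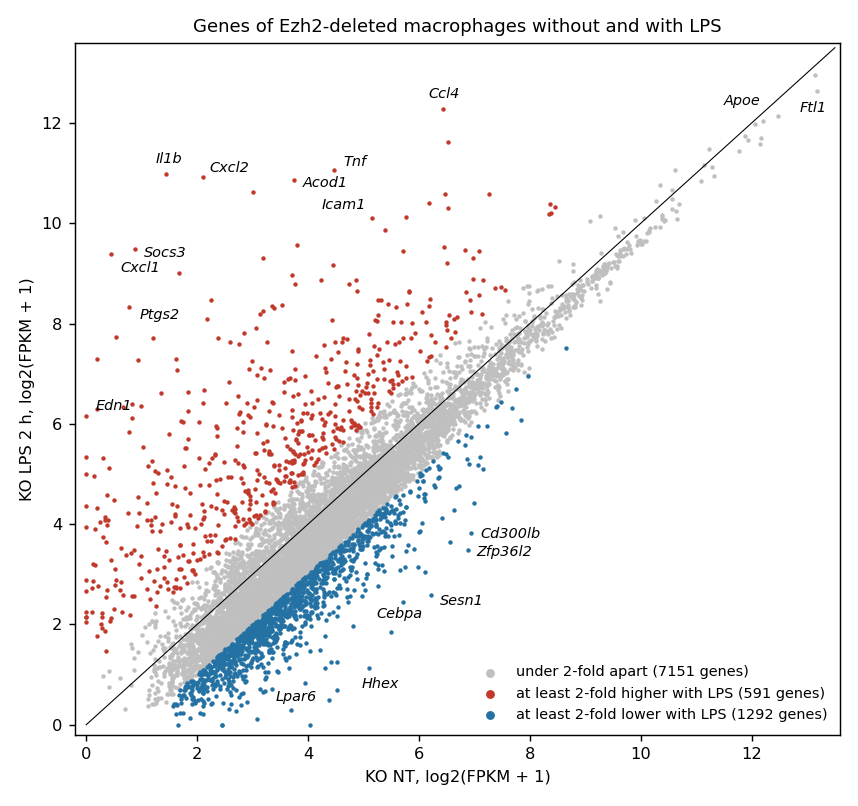
Level of each of the 9034 genes as log2(FPKM + 1) in KO NT (horizontal axis) and KO LPS (vertical axis), with genes at least 2-fold higher in red (591), at least 2-fold lower in blue (1292) and the other 7151 in grey. The red points reach far from the diagonal at low untreated levels, whereas most blue points lie close to the 2-fold line.

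Receptors and adaptors of LPS sensing moved in both directions. Of 26 measured members of the TLR4 complex and its adaptors, 7 passed 2-fold upward and 2 downward, with a median log2 fold of 0.33. Tlr4 itself, the signalling receptor, was at 37.1 FPKM in KO NT and 10.8 in KO LPS, and at 33.0 and 9.89 in WT, so both treated libraries were low. Its ratio in KO was 0.290 (0.261 to 0.322). Cd14, the co-receptor that hands LPS over, went the other way, from 334 to 1178 FPKM (ratio 3.53, 3.39 to 3.67). Ly96 was at 21.7 and 23.9 FPKM.

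Peli1, a ubiquitin ligase of the pathway, had the highest fold of this list, from 18.5 to 189 FPKM. Tank and Ikbke, which act with the kinase Tbk1 upstream of the interferon regulatory factors, had log2 folds of 2.04 and 1.52. Irak2, a kinase that sustains MyD88 signalling, was at 1.99, and the adaptors Myd88 and Ticam2 were at 1.06 and 1.03. Tab1, a partner of the kinase Map3k7 (TAK1), was lowest, at 10.03 and 1.07 FPKM (ratio 0.107, 0.0607 to 0.176). The other members, among them Irak4, Traf6, Tirap and Ikbkg, stayed within 2-fold.

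Of 11 other Toll-like receptor genes measured, 1 was higher and 3 were lower, at a median of -0.46. Tlr2, which recognises bacterial lipoproteins, was at 42.7 FPKM in KO NT and 336 in KO LPS, a log2 fold of 2.95, and at 27.7 and 340 in WT. The 3 lower genes, Tlr8, Tlr9 and Tlr13, encode endosomal receptors of nucleic acids and had log2 folds of -1.28, -1.20 and -1.10. Tlr3, the receptor of double-stranded RNA, was at 8.82 and 7.35 FPKM in KO but at 9.89 and 16.7 in WT.

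All 11 NF-kB subunits and IkB proteins were at least 2-fold higher, with a median of 2.98. Nfkbiz and Nfkbia led them. Nfkbiz, an atypical IkB protein needed for secondary response genes, was at 17.9 FPKM in KO NT and 467 in KO LPS, a log2 fold of 4.63. Nfkbia, the inhibitor IkBa that NF-kB itself induces, was at 40.8 and 932 FPKM (ratio 22.8, 20.6 to 25.4). Rel, a subunit of lymphoid and myeloid cells, was at 5.65 and 92.8 FPKM, and Rela, the most widely expressed subunit, had the lowest fold of the list, 1.17.

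Ubiquitin and other feedback genes of NF-kB followed the same direction. Of 15 measured, 10 were at least 2-fold higher and none was lower (median 1.66). Tnfaip3 (A20), an enzyme that edits ubiquitin chains and ends NF-kB signalling, was at 12.9 FPKM in KO NT and 753 in KO LPS, a ratio of 58.3 (52.3 to 65.3). Traf1 was at 6.90 and 152 FPKM, and Tnfaip2 at 91.3 and 1255. Cyld, Tifa, Tnip2, Otud7b and Traf2 had log2 folds between 0.03 and 0.98, short of 2-fold.

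Immediate early genes were mixed at this time. Of 22 measured, 13 were at least 2-fold higher and 2 lower, at a median of 1.45. Maff, a small Maf protein, had the highest log2 fold, 5.26, followed by Csrnp1 at 4.31 and Ier3 at 3.44. Junb was at 55.4 FPKM in KO NT and 395 in KO LPS. The 2 lower genes were the founding AP-1 partners: Fos was at 62.2 and 7.8 FPKM, and Jun at 32.9 and 11.6. In WT, Fos was at 39.9 and 11.5 FPKM, so the untreated KO library was the highest of the 4 and the treated KO library the lowest.

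MAP kinase phosphatases also moved unevenly. Dusp2 was at 1.31 FPKM in KO NT and 207 in KO LPS, a log2 fold of 6.49, and at 0.76 and 149 in WT. Dusp1, which inactivates the kinases p38 and JNK, was at 28.2 and 469 FPKM in KO and at 30.8 and 247 in WT, with the untreated libraries alike and KO LPS the highest of the 4. Dusp6, a phosphatase of ERK, was at 14.7 and 2.10 FPKM (ratio 0.143, 0.0950 to 0.209). Of the 9 measured, 4 were at least 2-fold higher and 1 was lower (median 0.90).

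Regulators of mRNA decay held a contrast within a single protein family. Zfp36 (tristetraprolin), which binds AU-rich elements and speeds the decay of cytokine transcripts, was at 90.2 FPKM in KO NT and 587 in KO LPS, and at 78.3 and 515 in WT. Its paralog Zfp36l2 was at 116 and 10.1 FPKM in KO and at 112 and 9.47 in WT, a KO ratio of 0.0871 (0.0747 to 0.101). The third paralog, Zfp36l1, was at 68.8 and 40.6 FPKM. The Zc3h12 genes, which encode regnase-type RNA-binding proteins, split likewise, with log2 folds of 3.07 for Zc3h12a, 3.47 for Zc3h12c and -2.16 for Zc3h12d. Over the list, 4 of 15 were higher and 2 lower (median 0.32).

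Of 17 SOCS and other cytokine feedback genes, 8 passed 2-fold upward and 3 downward (median 0.86). Socs3, an inhibitor of gp130 receptor signalling, was at 0.83 FPKM in KO NT and 711 in KO LPS. Cish, a SOCS family member, was not listed in KO NT and had 488 counts and 30.8 FPKM in KO LPS. Set against a floor of 3 counts, it was at least 176-fold higher. Socs1, an inhibitor of JAK kinases, was at 2.35 and 64.4 FPKM. The lower genes were Bcl6, a repressor of inflammatory genes, Socs6 and Pias3, with log2 folds of -1.32, -1.24 and -1.08.

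**Figure D2:**
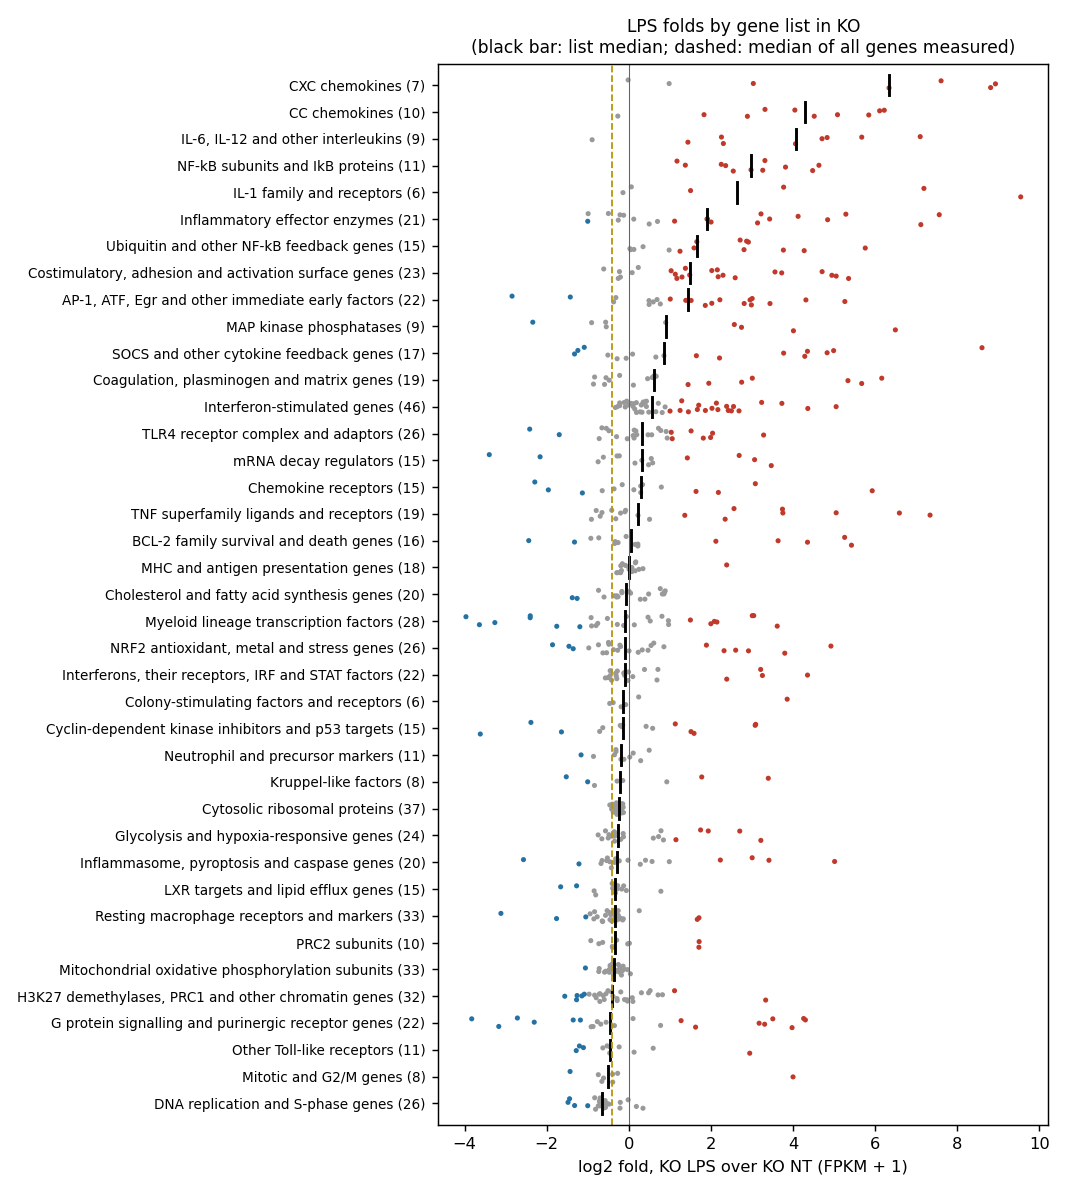
Log2 fold of (FPKM + 1) in KO LPS over KO NT for each measured member (points) of the gene lists, 1 strip a list, with the list median as a black bar and the median of all 9034 genes (-0.41) as a dashed line. The CXC and CC chemokine, interleukin and NF-kB strips lie to the high side, whereas the ribosomal and oxidative phosphorylation strips sit tightly around the dashed line.

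Cytokine ligands held the highest folds. Of 9 measured interleukins of the IL-6 and IL-12 families and others, 8 were at least 2-fold higher (median 4.06), and Il16 was at -0.89. Il12b, the p40 subunit shared by IL-12 and IL-23, was at 0.14 FPKM in KO NT and 155 in KO LPS, and at 0.28 and 239.5 in WT. Both untreated libraries were near 0. Il27, a subunit of interleukin 27, was at 2.08 and 156 FPKM. Il6 was at 0.33 and 33.8 FPKM in KO and at 0.17 and 132 in WT, so KO LPS lay well below WT LPS. Il10, the main anti-inflammatory cytokine of macrophages, was at 5.74 and 191 FPKM in KO and at 5.32 and 92.9 in WT, so KO LPS was the highest of the 4.

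Of 6 measured IL-1 family genes, 4 were at least 2-fold higher (median 2.64). Il1b, the gene with the highest fold of all 9034, had 13 counts in KO NT and 14214 in KO LPS, a ratio of 1183 with a wide interval (692 to 2223) that reflects the few untreated counts. Il1a was at 0.45 FPKM in KO NT and 211 in KO LPS. Il1rn, the secreted antagonist of the IL-1 receptor, was at 28.5 and 402 FPKM in KO. The receptor accessory protein Il1rap and the binding protein Il18bp were at log2 folds of -0.14 and 0.06.

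Of 19 measured TNF superfamily genes, 8 were at least 2-fold higher and none lower (median 0.22). Of the higher genes, 5 encode ligands and 3 receptors. Tnf was at 21.1 FPKM in KO NT and 2135 in KO LPS, and at 25.2 and 4172 in WT, a KO ratio of 101 (87.8 to 116.8). Tnfsf9 (4-1BB ligand) was at 2.18 and 514 FPKM, Tnfsf15 at 0.26 and 15.9, and Tnfsf4 (OX40 ligand) rested on 1 count in KO NT, where it was at 0.11 FPKM, and was at 13.97 in KO LPS. Among receptors, Cd40, Fas and Tnfrsf1b had log2 folds of 5.05, 2.56 and 2.35, while Tnfrsf1a, the other TNF receptor, was at -0.09. Of 6 colony-stimulating factors and receptors, 1 was higher and none lower, and the median of -0.13 became 0.23 with median-ratio scaling. The higher gene was Csf1, the ligand that maintains macrophages, at 2.58 and 50.9 FPKM. Its receptor Csf1r was at 762 and 552.

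Chemokines made up the list with the highest median. The promoters of 4 CXC chemokine genes are shown because these genes had log2 folds between 6.34 and 8.93 and each holds a match to a kB motif, the sequence bound by NF-kB (GGGANNTTCC, searched on both strands). Each line gives the 170 bases before the RefSeq start on the gene's strand, with the bases covered by a kB match in capitals. They are from RefSeq on GRCm38.p6: Cxcl1 at chr5:90891075-90891244 (+), Cxcl2 at chr5:90903729-90903898 (+), Cxcl3 at chr5:90785931-90786100 (+) and Cxcl10 at chr5:92348890-92349059 (-).
Cxcl1: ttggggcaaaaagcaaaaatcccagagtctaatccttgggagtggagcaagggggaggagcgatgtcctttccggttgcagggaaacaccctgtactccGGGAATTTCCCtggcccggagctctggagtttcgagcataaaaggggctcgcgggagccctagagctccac
Cxcl2: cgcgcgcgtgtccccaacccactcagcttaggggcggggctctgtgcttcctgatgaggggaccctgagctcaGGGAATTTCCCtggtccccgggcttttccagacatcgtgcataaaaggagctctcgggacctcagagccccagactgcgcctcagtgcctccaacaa
Cxcl3: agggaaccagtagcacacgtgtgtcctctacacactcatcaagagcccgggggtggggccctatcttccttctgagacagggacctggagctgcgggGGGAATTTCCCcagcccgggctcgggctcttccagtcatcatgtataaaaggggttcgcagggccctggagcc
Cxcl10: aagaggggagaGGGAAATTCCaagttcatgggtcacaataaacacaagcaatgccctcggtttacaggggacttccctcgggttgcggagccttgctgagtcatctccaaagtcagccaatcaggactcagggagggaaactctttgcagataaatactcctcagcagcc
In Cxcl1, Cxcl2 and Cxcl3 the stretch GGGAATTTCCC holds overlapping matches on both strands, and it starts 71, 97 and 73 bases before the start site. In Cxcl10 the match starts 159 bases before it. A match describes letters in this window and is not a measured binding site.

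Cxcl1 and Cxcl2, which draw neutrophils through Cxcr2, were near 0 without LPS and among the highest folds with it. Cxcl1 was at 0.37 FPKM in KO NT and 668 in KO LPS, and at 0.19 and 1333 in WT. Cxcl2 was at 3.28 and 1927 FPKM in KO and at 4.24 and 3504 in WT. Cxcl3 was at 0.92 and 155 in KO and at 0.42 and 160 in WT. In all 3 the untreated libraries were low and the treated ones high in both genotypes. Cxcl1 rested on 2 counts in KO NT, which leaves its ratio between 499.7 and 14922, and Cxcl2 and Cxcl3 had fractional counts that show shared reads.

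Cxcl10, an interferon-inducible attractant of T cells, was at 7.04 FPKM in KO NT and 1568 in KO LPS, and at 14.7 and 3472 in WT. Its neighbour Cxcl11 went from 0.11 to 8.09 FPKM in KO. Cxcl16 was just short of 2-fold (log2 fold 0.98), and Pf4, a platelet and macrophage chemokine, was at -0.02. Of 7 CXC genes measured, 5 were at least 2-fold higher (median 6.34).

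Of 10 CC chemokines measured, 9 were at least 2-fold higher (median 4.28), and Ccl6 was at -0.27. Ccl3 and Ccl4, which attract monocytes and T cells, reached the highest levels, 3131 and 4969.5 FPKM in KO LPS from 91.3 and 85.4 in KO NT. Ccl2, which recruits monocytes through Ccr2, was at 8.11 and 629 FPKM in KO and at 70.0 and 1496 in WT. Ccl7, another Ccr2 ligand, was at 3.76 and 355 in KO and at 35.4 and 712 in WT. For both genes KO NT was the lowest library of the 4, and KO LPS lay below WT LPS.

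Among 15 chemokine and chemoattractant receptors, 4 were at least 2-fold higher and 3 lower (median 0.29). Ccrl2, an atypical receptor, was at 3.50 and 273 FPKM. Fpr2 and Fpr1, receptors of formylated bacterial peptides, had log2 folds of 3.08 and 2.18. The lower ones were Cxcr4 (53.3 and 10.1 FPKM), S1pr1 (16.8 and 3.58) and Ccr2 (8.35 and 3.27), which guide cells to marrow, blood and sites of inflammation.

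The interferon arm was represented by few members. Of 22 interferon, receptor, IRF and STAT genes, 4 were at least 2-fold higher and none lower, and the median of -0.10 became 0.25 with median-ratio scaling. Ifnb1, interferon beta, was not listed in either untreated library and had 76 counts in KO LPS and 744 in WT LPS. Against a floor of 3 counts per library it was at least 27.4-fold higher in KO LPS and at least 249.9-fold higher in WT LPS. Irf1 was at 37.2 and 354 FPKM in KO, and Jak2, a kinase of cytokine receptors, at 11.5 and 118. Irf3 and Irf7, which switch on interferon genes, had log2 folds of -0.32 and -0.31, and Stat2, which carries the interferon signal to the nucleus, was at -0.57.

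Of 46 interferon-stimulated genes, 19 were at least 2-fold higher in KO and none lower, with a median of 0.57 against 0.86 in WT, where 22 were higher. The promoters of Ifi205 and Gbp5 are shown because these had the highest folds of the list and both hold a match to GAAANNGAAA, the core of the interferon-stimulated response element (ISRE), searched on both strands and given in capitals. They are the 170 bases before the RefSeq start on GRCm38.p6, at chr1:174031756-174031925 (-) for Ifi205 and chr3:142496764-142496933 (+) for Gbp5.
Ifi205: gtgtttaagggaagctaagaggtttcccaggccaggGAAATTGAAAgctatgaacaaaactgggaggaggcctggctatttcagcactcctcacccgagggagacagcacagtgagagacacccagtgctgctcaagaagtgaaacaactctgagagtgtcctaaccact
Gbp5: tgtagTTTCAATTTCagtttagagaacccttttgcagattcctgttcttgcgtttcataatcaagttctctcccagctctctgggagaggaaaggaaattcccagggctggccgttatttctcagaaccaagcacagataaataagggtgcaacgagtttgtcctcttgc
The match starts 134 bases before the start in Ifi205 and 165 bases before it in Gbp5, where it lies on the opposite strand. Gbp5 also holds a kB match within this window, left in lower case.

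Ifi205, of the p200 family, was at 7.8 FPKM in KO NT and 291 in KO LPS, and at 11.2 and 427 in WT. Gbp5, a guanylate-binding protein, was at 8.60 and 196 FPKM in KO and at 7.37 and 247 in WT. Rsad2 (viperin) was at 51.4 and 694 FPKM in KO, and Mx2, an antiviral GTPase, at 11.8 and 120.0. At the other end were Oas3 and Tor3a, with log2 folds of -0.28 and -0.33. Ifit3b, which shares reads with its near copies, was at 52.5 and 52.1 FPKM in KO but at 47.0 and 114 in WT. The KO fold was below the WT fold for 37 of the 46 and above it for 9, whereas it was below for 3684 of all 9034 genes (40.8%). Other lists leaned the same way, with 35 of 37 ribosomal protein genes, 14 of 18 antigen presentation genes and 7 of 8 mitotic genes below.

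**Figure D3:**
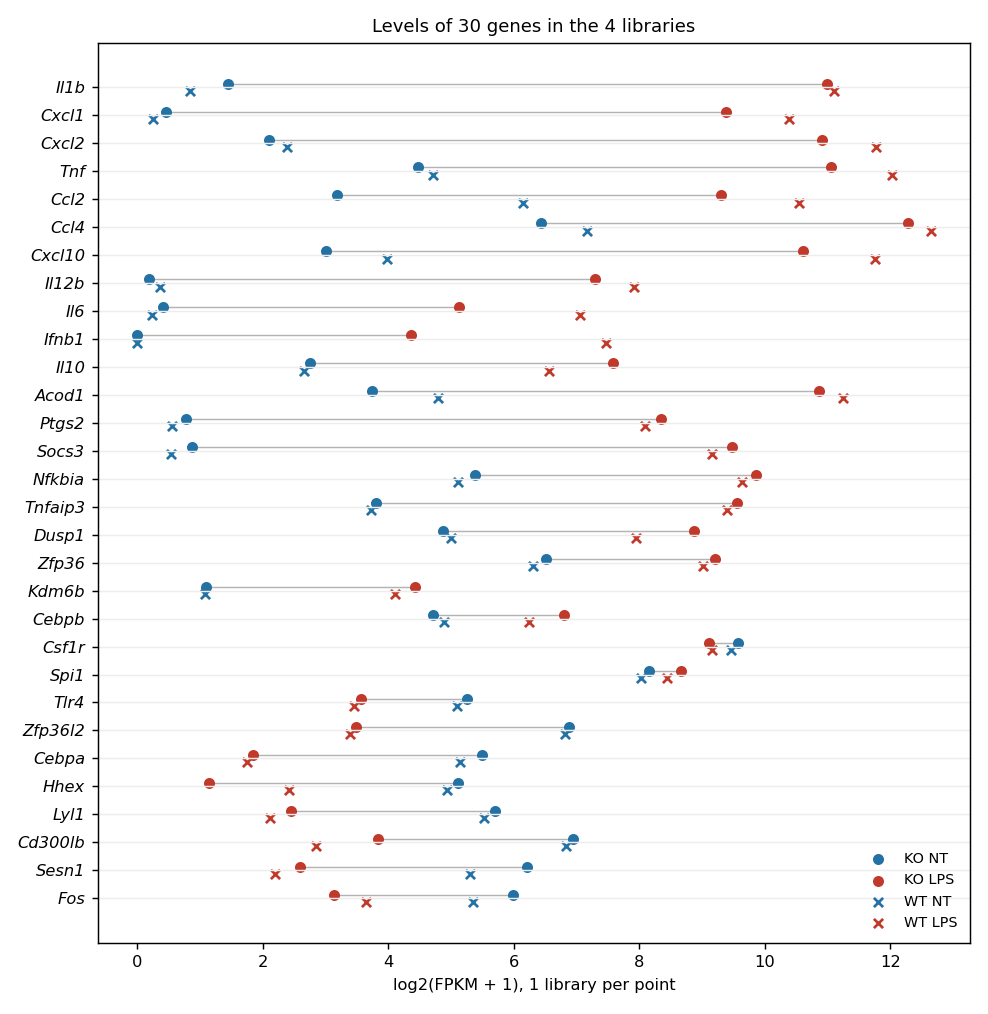
Level as log2(FPKM + 1) of 30 named genes in all 4 libraries, with KO as circles, WT as crosses, NT in blue and LPS in red. For the cytokines and chemokines the red marks lie far to the right of the blue ones in both genotypes, and for Cebpa, Zfp36l2 and Tlr4 they lie to the left.

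Of 21 effector enzymes measured, 12 were at least 2-fold higher and 1 lower (median 1.91). Ptgs2 (COX-2), which begins prostaglandin synthesis, was at 0.71 FPKM in KO NT and 322 in KO LPS, and Ptges, which makes prostaglandin E, at 0.24 and 12.4. Acod1, which makes itaconate, was at 12.4 and 1854 FPKM in KO and at 26.8 and 2422 in WT. Nos2, the inducible nitric oxide synthase, was at 0.14 and 18.9. Ch25h, which makes 25-hydroxycholesterol, was at 0.78 and 68.6, and Mmp13, a collagenase, at 10.6 and 332. The lower gene was Ptgs1, the constitutive cyclooxygenase, at 4.70 FPKM in KO NT and 1.85 in KO LPS.

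Inflammasome and caspase genes were mostly within 2-fold: of 20 measured, 4 were higher and 2 lower, and the median of -0.28 became 0.04 with median-ratio scaling. Nlrp3, whose priming by LPS is well known, was at 12.7 FPKM in KO NT and 441 in KO LPS. Nod2, Mefv and Casp4 had log2 folds of 3.41, 3.01 and 2.23. Casp1, Pycard and Gsdmd, which act with Nlrp3, were at 0.41, -0.32 and 0.28. Txnip was lowest, at 126 and 20.5 FPKM.

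Among 16 BCL-2 family genes, 5 passed 2-fold upward and 2 downward (median 0.04). The higher genes were Bcl2a1a, Bcl2a1b and Bcl2a1d, near-identical survival genes with shared reads, Cflar, which blocks caspase-8 (20.7 and 269 FPKM), and the pro-apoptotic Bcl2l11 (37.0 and 164). The lower genes, Bmf (6.42 and 0.37 FPKM) and Bid (32.7 and 12.5), promote cell death.

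Surface genes of activation were among the lists with most members past 2-fold. Of 23 measured, 17 were at least 2-fold higher and none lower (median 1.48). Icam1, an adhesion ligand of integrins, was at 34.8 FPKM in KO NT and 1103 in KO LPS, and Clec4e (Mincle), a receptor of fungal and mycobacterial glycolipids, at 21.0 and 574. Cd69, an early activation antigen, was at 0.99 and 80.4 FPKM in KO and at 1.31 and 241.1 in WT. Cd80 and Cd86, which costimulate T cells, had log2 folds of 1.38 and 1.17. Sele (E-selectin), an adhesion molecule, was not listed in KO NT and had 53 counts in KO LPS. Clec7a, a beta-glucan receptor, was at -0.61.

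Of 19 genes of coagulation, plasminogen activation and matrix, 7 were at least 2-fold higher and none lower (median 0.61). Edn1 (endothelin 1) and Serpinb2 (plasminogen activator inhibitor 2) were not listed in KO NT. They had 792 and 412 counts in KO LPS, at least 286-fold and 149-fold above a floor of 3 counts. F3 (tissue factor) rested on 1 count in KO NT and 62 in KO LPS. Plaur, the urokinase receptor, was at 23.6 and 197.

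The lowest folds included transcription factors, lipid receptors and signalling genes. Of 28 myeloid transcription factors, 7 were at least 2-fold higher and 7 lower, and the median of -0.09 became 0.26 with median-ratio scaling. Cebpa, a factor of myeloid differentiation, was at 43.9 FPKM in KO NT and 2.60 in KO LPS, and at 34.5 and 2.35 in WT, while its relatives Cebpb (25.2 and 110.0 in KO) and Cebpd (9.36 and 84.5) were higher. Hhex, a homeobox factor of blood progenitors, was at 33.4 and 1.20 FPKM in KO and at 29.5 and 4.33 in WT, with reads shared with another gene. Lyl1 (51.1 and 4.43) and Tfeb (30.4 and 4.94), factors of blood progenitors and of lysosome genes, were also lower. Spi1 (PU.1), the master factor of macrophages, was at 283 and 406.

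Receptors of lysophospholipids were low with LPS in both genotypes. Lpar6 was at 22.0 FPKM in KO NT and 0.62 in KO LPS, and at 19.9 and 1.29 in WT. Lpar5 was at 18.7 and 1.19 in KO, and S1pr2, a receptor of sphingosine 1-phosphate, at 67.9 and 7.30. Rgs2, which shuts off G protein signalling, was at 84.7 and 16.4 in KO and at 75.9 and 29.0 in WT. Of 22 genes of this group, 8 were higher and 6 lower (median -0.45), and the higher ones included Gpr84, a receptor of medium-chain fatty acids (4.96 and 113), Hcar2 (1.82 and 54.7) and the adenosine receptor Adora2a (0.41 and 21.2).

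Cell cycle inhibitors and p53 targets were also divided: 5 of 15 were higher and 3 lower, and the median of -0.15 became 0.20 with median-ratio scaling. Sesn1, a stress-induced inhibitor of mTORC1 signalling, was at 73.3 FPKM in KO NT and 5.05 in KO LPS, and Trp53inp1 at 9.91 and 1.09. Cdkn1a (p21) was at 86.5 and 738, and Gadd45b at 23.7 and 209. Of 8 Kruppel-like factors, 2 were higher and 2 lower, and the median of -0.22 became 0.12 with that scaling. Klf7 and Klf6 had log2 folds of 3.40 and 1.78, and Klf2, which restrains inflammatory genes in myeloid cells, was at 12.2 and 3.59 FPKM.

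Other genes among the 15 lowest folds were Rhov, a small GTPase (11.99 FPKM in KO NT and 0.23 in KO LPS), Rab40c (20.3 and 1.39), Rnf144b, a ubiquitin ligase (22.0 and 1.38), Zfp395 (14.5 and 0.79, with shared reads) and AI467606 (19.7 and 0.40). Rpl37rt, with reads shared between genes, had 57.27 counts in KO NT and was listed at 0 in KO LPS. Zinc finger genes named Zfp with a number, Zscan or Zkscan, a group chosen after the values were seen, were often lower. Of 201 measured, 72 were at least 2-fold lower (35.8%) and 5 higher, at a median of -0.79 (-0.93 in WT). Over all 9034 genes, 14.3% were lower and 6.54% higher. Their median untreated level was 5.62 FPKM.

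Most members of the metabolic lists stayed within 2-fold, with a few members apart. Of 24 glycolysis and hypoxia genes, 5 were at least 2-fold higher and none lower, and the median of -0.25 became 0.11 with median-ratio scaling. The glucose transporters Slc2a6 (16.7 and 164 FPKM) and Slc2a1 (11.3 and 46.1), Pfkfb3, whose product activates phosphofructokinase (10.1 and 71.1), Ndrg1 and Hk2 were higher. The core enzymes Gapdh, Pkm, Ldha, Eno1 and Aldoa had log2 folds between -0.42 and -0.32. Of 20 genes of cholesterol and fatty acid synthesis, 2 were lower, Scd2 at -1.38 and Dhcr7 at -1.26, and none higher, and the median of -0.08 became 0.28 with that scaling. The SREBP2 targets Hmgcs1 and Idi1 were at 0.82 and 0.89, short of 2-fold.

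Of 15 LXR targets and lipid efflux genes, 2 were lower, near the share of all genes (14.3%), and none higher. Their median of -0.33 became 0.02 with median-ratio scaling. The cholesterol transporters differed, Abcg1 going from 52.6 to 16.0 FPKM and Abca1 from 29.9 to 52.2. Of 33 subunits of oxidative phosphorylation, 1 was lower, Ndufb10 (log2 fold -1.06), and the median was -0.37. None of the 37 ribosomal protein genes passed 2-fold. Their log2 folds lay between -0.46 and -0.13, and their median of -0.24 became 0.12 with that scaling.

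Stress and metal genes included 6 of 26 higher and 3 lower, beside 6.54% and 14.3% of all genes. Their median of -0.10 became 0.26 with median-ratio scaling. Gdf15, a stress cytokine, was at 9.44 FPKM in KO NT and 316 in KO LPS, and the metallothionein Mt2 at 28.7 and 179.5. Slc39a14, which imports zinc and iron, was at 5.11 and 29.5, while Slc40a1 (ferroportin), which exports iron, was at 14.8 and 3.37, and Slc30a1, a zinc exporter, at 12.9 and 4.45. Keap1, the inhibitor of NRF2, was at 30.1 and 10.3. Hspa1a and Hspa1b, near-identical heat shock genes, share reads and are not read singly.

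Of 26 DNA replication genes measured, 4 were at least 2-fold lower, near the share of all genes (14.3%), and none was higher. Their median was -0.64 (-0.35 with median-ratio scaling). Cdt1, which licenses replication origins, was at 39.0 FPKM in KO NT and 13.4 in KO LPS, and Mcm2 to Mcm7 had log2 folds between -0.71 and -0.21. Of 24 mitotic genes, 8 were measured. Kif23 was at -1.43, and Mki67, the proliferation antigen, stood apart from the rest at 3.10 and 64.7 FPKM in KO and at 1.79 and 63.2 in WT.

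PRC2 and its partners were measured in 10 of 12 cases. The core subunits Eed (19.1 and 11.1 FPKM), Suz12 (16.0 and 16.2), Rbbp4 and Rbbp7, and Ezh1, the other catalytic subunit (12.8 and 7.85), stayed within 2-fold. The accessory subunits Jarid2 and Aebp2 were at 6.52 and 23.7 FPKM and at 12.3 and 42.3 (ratios 3.63, 3.12 to 4.24, and 3.45, 3.09 to 3.86). In WT, Jarid2 was at 5.49 and 18.55 FPKM and Aebp2 at 10.2 and 33.1, so both were higher with LPS in each genotype. Of 32 other chromatin genes, 2 were higher and 5 lower (median -0.40), near the shares of all genes (6.54% and 14.3%). Kdm6b, which removes methyl groups from lysine 27 of histone H3, was at 1.13 and 20.5 FPKM in KO and at 1.1 and 16.1 in WT. Rnf2, the ubiquitin ligase of PRC1, was at 17.2 and 38.5 in KO and at 12.97 and 33.8 in WT. Kdm2b, Ep300, Hdac5, Cbx6 and Asxl2 had log2 folds between -1.56 and -1.08.

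Macrophage identity genes were abundant and mostly at the median of all genes. Of 33 measured, 2 were at least 2-fold higher (Timd4 and Fcgr2b) and 3 lower (Cd300lb, Mertk and Fcgr1), and the median of -0.34 became 0.02 with median-ratio scaling. Adgre1 (F4/80) was at 557 and 486 FPKM, Cd68 at 1331 and 1078, and the complement gene C1qb at 2166 and 1843. Cd300lb, an activating receptor, was at 122 and 13.2 FPKM in KO and at 113 and 6.2 in WT. Mertk, a receptor for the uptake of dying cells, was at 25.3 and 6.76. The summed level of the list was 28476 FPKM in KO NT and 21837 in KO LPS, and 26767 and 21529 in WT. The largest losses in FPKM came from such abundant genes, led by Ftl1 (9304 to 6397), Ctsd (4534 to 3060) and Psap (4624 to 3332), none of them 2-fold.

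Markers of other cells differed in level by cell type. Of 18 neutrophil and precursor markers, 11 were measured and their median of -0.19 became 0.17 with median-ratio scaling. Among them were the granule protein gene Ngp, at 77.0 FPKM in KO NT and 83.0 in KO LPS, and S100a9, which encodes a calcium-binding protein, at 282 and 247. Their summed level was 747 FPKM in KO NT and 671 in KO LPS, and 445 and 484 in WT, so it was higher in KO than in WT in both states. Of 18 lymphocyte, erythroid and mast cell markers, 1 (Cd4) was measured and 7 were not listed in either KO library, among them Cd3e and Hbb-bs. Of 11 dendritic cell markers, 2 were measured, Fscn1 with a log2 fold of 2.07 and Itgax at -0.16. None of 12 fibroblast and stromal markers was measured. The part of neutrophil RNA in the results was not tested. The 18 antigen presentation genes had a median of 0.01, and 1 was higher, H2-M2 (0.98 and 9.34 FPKM).

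Both higher and lower genes included neighbours. Runs of at least 3 adjacent measured genes, no more than 200 kb apart and all at least 2-fold higher, numbered 15 and held 49 genes (8.29% of the 591). Runs of lower genes numbered 38 and held 124 (9.6% of the 1292). Lower genes were more common among all measured genes (14.3% against 6.54%), which by itself makes runs more frequent. The 2 shares therefore do not show which side was more clustered, and this was not tested. The 3 chemokine genes Cxcl3, Cxcl1 and Cxcl2 lie at chr5:90786101-90905938, and Cxcl10, Cxcl11 and Nup54 at chr5:92346638-92435259. Ccl2, Ccl7 and Ccl12 lie at chr11:82035577-82103399, and Il1a and Il1b with the noncoding Gm14023 at chr2:129297370-129371164. A run of 5 at chr3:142496934-142783606 held Gbp5, Gbp7, Gbp3, Gbp2 and Gtf2b.

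The genes with the largest folds in both directions were short, with few genes on the lower side. The 114 genes at least 10-fold higher had a median span of 10.8 kb and a median untreated level of 2.59 FPKM, against 23.6 kb and 14.97 for all measured genes. The 8 genes at least 10-fold lower had 4.96 kb and 27.7 FPKM. The untreated level is the denominator of the fold, so these levels follow in part from the selection. For the 591 higher genes the values were 21.6 kb and 8.82 FPKM, and for the 1292 lower genes 19.6 kb and 10.4. At 2-fold the span of the higher genes thus lay above that of the lower genes, as it did at 3-fold (19.0 and 15.9 kb). With median-ratio scaling the span of the 2-fold higher genes was 24.2 kb, above that of all genes. Long noncoding RNAs were 23 of the higher genes (3.89%), 16 of the lower (1.24%) and 120 of all (1.33%).

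Promoters were read from 250 bases before to 50 after the start, for genes with a single RefSeq start. The median ratio of observed to expected CpG was 0.49 in the 69 promoters of the 10-fold higher group, 0.70 in the 366 of the 2-fold higher group, 0.79 in the lower group and 0.80 over all measured genes. It was also 0.49 in the 6 promoters of genes at least 10-fold lower. A kB match was in 10 of the 69 (14.5%), in 15 of the 366 (4.1%), in 1.35% of lower genes and in 1.58% of all measured, and in 1.41% of all 22862 single-start promoters. An ISRE match was in 11.6%, 8.2%, 2.2%, 3.49% and 3.58% of these groups in the same order. The AP-1 letters TGACTCA, on either strand, were in 8.70%, 6.56%, 3.3%, 3.49% and 5.17%. A TATAAA on the gene strand 50 to 11 bases before the start was in 11.6%, 4.37%, 1.71%, 1.36% and 2.88%. The CRE letters TGACGTCA were in 2.19% of higher, 3.43% of lower and 3.44% of all measured genes, and the SRE (CArG box) in 1.91%, 0.979% and 1.31%. These are descriptions of letters with few promoters in the smallest group, and none was tested.

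**Figure D4:**
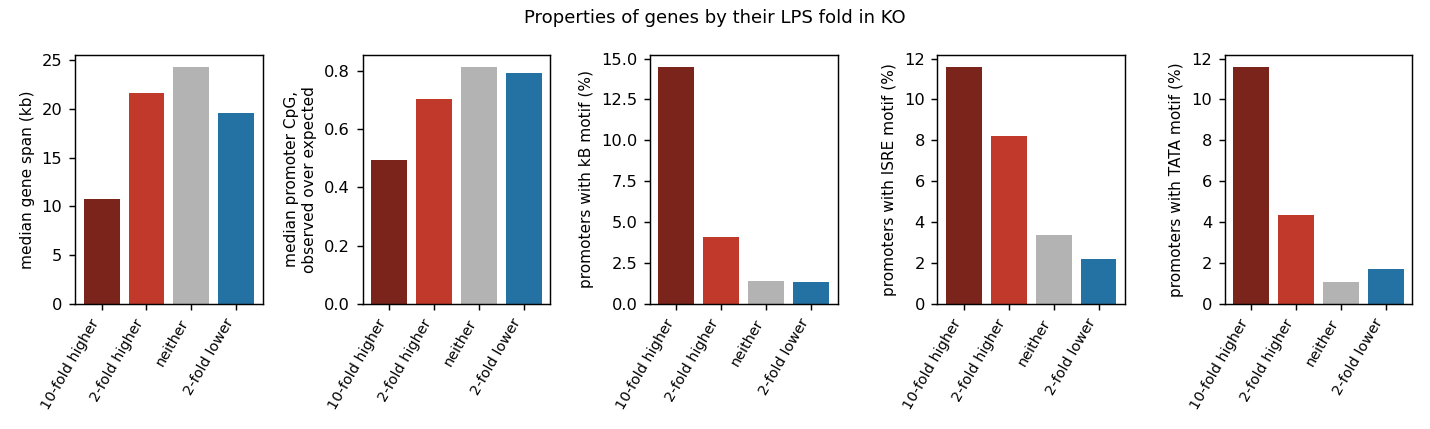
Median gene span, median promoter ratio of observed to expected CpG, and the percentage of promoters with a kB, ISRE or TATA match, in 5 bar panels from 0, for genes at least 10-fold higher, at least 2-fold higher, neither, and at least 2-fold lower in KO LPS. Among the groups shown, the bars of the 10-fold higher group are the lowest for span and CpG and the highest for the 3 motifs. Genes at least 10-fold lower are not shown.

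The response of KO cells shared most of its genes with that of WT cells under the same rule. Of the 591 genes higher in KO, 510 were higher in WT too, which is 86.3% of the KO genes and 89.8% of the 568 WT genes. Of the 1292 lower in KO, 1002 were lower in WT, 77.6% of the KO genes and 67.8% of the 1478 WT genes. The median WT fold over the same 9034 genes was -0.45.

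The folds of a few genes parted by 2-fold or more. Over 9218 genes with at least 50 counts in any library, the fold of FPKM + 1 was at least 2 times as large in KO as in WT for 52 (0.564%) and at least 2 times smaller for 31 (0.336%). The median difference of the log2 folds was 0.05. With median-ratio scaling the counts were 49 and 42 and the median difference was 0.01, and the balance between the directions was not tested. With 1 library a group these are sizes only. Where given below, the ratio of the KO ratio to the WT ratio has an approximate 95% log-normal interval from the counts. Other genes are given by their levels alone, and Ifnb1 has no such ratio because it was not listed in either untreated library. The higher summed level of neutrophil markers in the KO libraries, given above, moves with genotype, and its part in these differences was not tested.

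Among genes with the larger KO fold, Ccl7 and Ccl2 started lower in KO, as given above, and their ratios of ratios were 4.69 (2.93 to 7.52) and 3.63 (2.57 to 5.12). Pfkfb3 started level, at 10.1 FPKM in KO NT and 10.9 in WT NT, and was at 71.1 in KO LPS and 21.5 in WT LPS (3.59, 2.98 to 4.33). Sbno2, a transcriptional coregulator induced by interleukin 10, was at 27.6 and 88.6 FPKM in KO but at 30.9 and 32.8 in WT (3.03, 2.67 to 3.43). Rnd1, a small GTPase, was at 0.78 and 83.7 in KO and at 1.85 and 41.1 in WT. Irs2, an insulin receptor substrate, was at 1.66 and 7.88 in KO and at 3.92 and 4.39 in WT, and Smim3 at 4.31 and 28.7 and at 5.80 and 13.4.

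Dusp1 was also on this side, with a ratio of ratios of 2.08 (1.77 to 2.45). Il10, short of 2-fold on the log2 scale, had a ratio of 1.91 (1.22 to 2.97). Of the 17 SOCS and cytokine feedback genes, the KO fold was above the WT fold for 8 and below it for 9. The receptors P2ry2, which senses ATP, and Adora2b, which senses adenosine, were at 84.0 and 26.3 FPKM in KO LPS and at 54.2 and 15.2 in WT LPS, from 6.47 and 2.02 in KO NT and 11.5 and 3.55 in WT NT. Fosl2, an AP-1 subunit, was at 6.11 and 56.1 FPKM in KO and at 6.58 and 23.4 in WT.

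Genes with the smaller KO fold included Ifnb1, Il6 and the chemokine Cxcl1. Cxcl1 had a log2 fold of 8.93 in KO and 10.13 in WT, with 2 counts in KO NT and 1 in WT NT. Its ratio of ratios of 0.258 had an interval from 0.034 to 1.95, which includes 1. Il6 rested on 2 counts in KO NT, and its ratio of ratios of 0.132 had an interval from 0.0173 to 1.0032. Ccng2, a cyclin G, was at 12.5 and 37.6 FPKM in KO and at 8.05 and 70.7 in WT (0.343, 0.265 to 0.443). Calhm6 was at 10.5 and 59.1 in KO and at 4.09 and 70.0 in WT (0.329, 0.203 to 0.532). Hhex, with its shared reads, had a ratio of 0.245 (0.126 to 0.477), since it was lower in KO LPS than in WT LPS. Fos, which was higher in KO NT than in WT NT and lower in KO LPS than in WT LPS, had a ratio of 0.434 (0.324 to 0.581). Tnf, short of 2-fold, had a ratio of ratios of 0.610 (0.504 to 0.737).

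**Figure D5:**
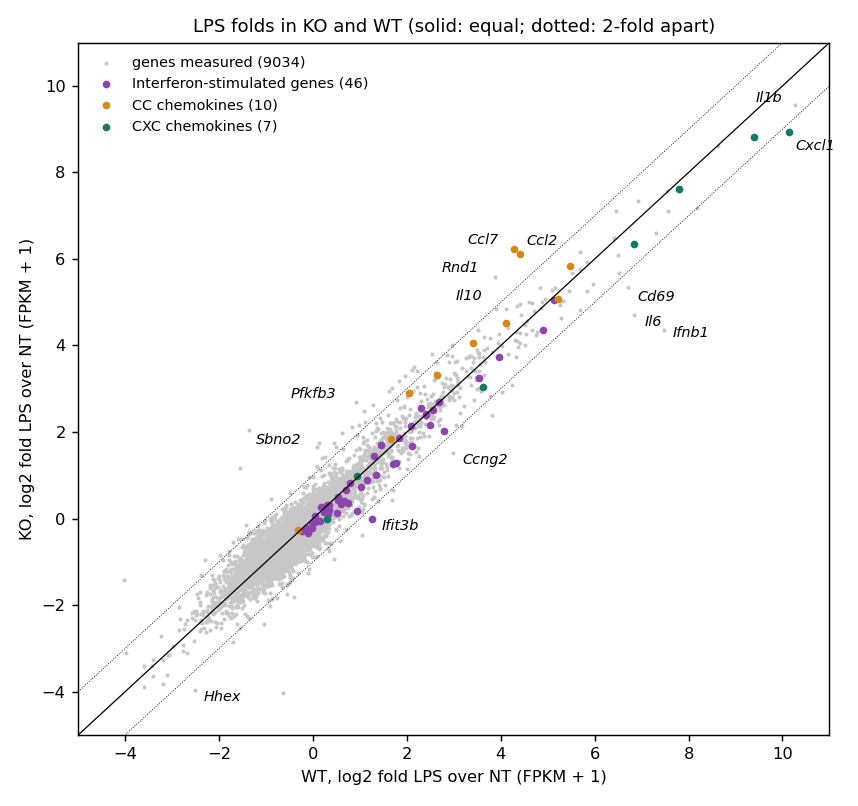
Log2 fold of (FPKM + 1) with LPS in WT (horizontal axis) and in KO (vertical axis), 1 point a gene, with the solid line at equal folds, dotted lines 2-fold apart, and the 46 interferon-stimulated genes in purple, 10 CC chemokines in orange and 7 CXC chemokines in green. Most points lie between the dotted lines, the purple points mostly just under the solid line, and Ccl2 and Ccl7 above the upper dotted line.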

How the data were processed

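The 4 RNA-seq libraries were analysed as deposited, with 1 library a group. Per the file headers, the authors' files give for each gene an expected count, an effective length and an FPKM value. Bowtie, RSEM and mm10 are named per the submitters' processing notes, with versions, annotation and strand setting not given in the sources used here. Fractional expected counts mark reads that the authors' quantification shared between genes. A gene missing from a library's file was taken as 0. The members and the 42 gene lists were chosen with earlier results of these data known.

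Folds used FPKM with a pseudocount of 1 and genes with at least 50 expected counts in KO NT or KO LPS. Ratios carry exact Clopper-Pearson 95% intervals, and a gene listed at 0 has a bound, computed as if it had 3 counts in that library. No test was run, since groups had 1 library. Named genes were the 15 highest and 15 lowest folds, the 10 largest gains and losses in FPKM, the 10 highest and lowest differences between KO and WT folds, the 3 highest and lowest of each list, and a set fixed beside them. Of these, predicted genes and small RNAs may be left undescribed. Promoters came from RefSeq (GRCm38.p6), to which 15897 of 15935 symbols matched. The calculations ran in Python 3.11.15 with numpy 2.4.6, pandas 2.3.3, scipy 1.17.1 and matplotlib 3.10.9, and were tested on simulated data. In all, 10 alternatives were run. Total expected counts were 5668826 in KO NT, 5237782 in KO LPS, 5678451 in WT NT and 5635004 in WT LPS. A few members are not reported here.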

Additional observations from a re-analysis of the deposited data

Results flagged for a closer look

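For 2 predicted genes, the KO libraries moved one way with LPS and the WT libraries the opposite way, and this difference was not tested. Gm18853 was listed at 0 in KO NT and at 3.11 FPKM in KO LPS, but at 1.58 FPKM in WT NT and at 0 in WT LPS, a difference of 3.41 between the KO and WT log2 folds. Gm6644 was at 2.77 and 7.49 FPKM in KO and at 9.61 and 2.62 FPKM in WT, a difference of 2.72. Both have fractional counts, so their reads are shared with other genes.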

How the results depend on the processing

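The 591 higher genes became 894 at 1.5-fold. The 1292 lower genes became 370 with a pseudocount of 5 FPKM, 566 at 200 counts, 615 with median-ratio scaling, 3300 at 1.5-fold and 280 at 3-fold. The 83 genes whose folds differed at least 2-fold between KO and WT (52 above, 31 below) became 239 (153 and 86) with a pseudocount of 0.1, 25 (14 and 11) with 5, 404 (229 and 175) with no filter, 38 (23 and 15) at 200 counts, 376 (215 and 161) at 1 FPKM, 143 (92 and 51) on CPM, 547 (355 and 192) at 1.5-fold and 13 (9 and 4) at 3-fold. For each of these the cause was not tested. Setting genes at 0 to 3 counts changed none of these counts. Of 278 named folds, median-ratio scaling changed the sign of 30, none of them among the 176 past 2-fold, of which 158 stayed past it, and a pseudocount of 5 left 151. Of 39 list medians, 13 changed sign with that scaling, as given in the report, and 2 with no filter, 2 at 1 FPKM and, of 38, 4 at 200 counts. With that scaling the genes differing between KO and WT were 49 above and 42 below. The share of promoters with a kB match was 3.28% of higher and 1.01% of lower genes with that scaling. No paired analysis was possible because each group has 1 library, and no library could be left out. Depth limits genes such as Cxcl1, Il6 and Il12b, which rest on 2 counts in KO NT.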

Other observations

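Some genes with high folds belong to none of the gene lists. Olfr1033, named as an olfactory receptor, was at 0.70 FPKM in KO NT and 56.3 in KO LPS, and at 0.89 and 57.0 in WT. Wdr92 was at 7.31 and 239.5 FPKM in KO. Marcksl1, a regulator of the actin cytoskeleton, was at 71.2 and 1358 FPKM in KO and at 56.2 and 1537 in WT. Sdc4, a cell surface proteoglycan, was at 87.5 and 1532 FPKM in KO and at 61.5 and 1270.2 in WT. Each was higher with LPS in the genotypes for which values are given.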
